A study of Homo sapiens with 9 samples.

Results

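The forkhead (FOX) transcription factors were examined in HCT116 cells, a human colorectal carcinoma line, in which the long noncoding RNA CRLM1 (LINC01767) was overexpressed. Members were all protein-coding genes of the deposited count table with a symbol of FOX, a family letter from A to S and a number. The rule found 42 of 31558 genes. Of these, 41 encode forkhead proteins, and FOXL2NB is the neighbour of FOXL2 on the chromosome and takes its symbol from it. Each group held 3 biological replicates of polyA RNA: cells with the CRLM1 plasmid (CRLM1-OE), cells with the empty plasmid (Ctrl) and cells with a plasmid carrying the antisense sequence of CRLM1 (CRLM1-anti). The series description calls all 3 groups stable HCT116 lines, 1 per plasmid, whereas the study also speaks of transfected cells, and its methods give a lentiviral vector with GFP and puromycin resistance for expressing CRLM1. On the former account an effect of the plasmid and a difference between lines cannot be told apart, and the p-values measure only the spread among these replicates, which may be technical.

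Forkhead proteins bind DNA through a winged-helix domain of shared fold and recognise sites around the core TGTTTAC. Most activate or repress transcription through the regions outside this domain, and the FOXA proteins can bind closed chromatin and open it for other factors. In the intestine, FOXA proteins act in the epithelium, FOXF1, FOXF2 and FOXL1 belong to the mesenchyme under the epithelium where they answer Hedgehog signals, FOXO proteins are held in the cytoplasm when PI3K and AKT are active, and FOXM1 drives genes of G2 and mitosis.

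The promoters of FOXD1, FOXK1 and FOXD3 are shown because FOXD1 and FOXK1 had the smallest adjusted p-values of the family against Ctrl and FOXD3 was called against Ctrl in both other groups. Each run covers the 250 bases before the RefSeq start site on GRCh38.p14, written on the strand of the gene. FOXD1 lies at chr5:73448778-73449027 on the reverse strand, FOXK1 at chr7:4682045-4682294 and FOXD3 at chr1:63322317-63322566, both on the forward strand. Capitals mark exact matches to CCCTCCC (a C-rich element of the kind hnRNPK binds), TGTTTAC (forkhead), TGANTCA (AP-1), TGACGTCA (CRE) or CACGTG (E-box), searched on both strands.
FOXD1: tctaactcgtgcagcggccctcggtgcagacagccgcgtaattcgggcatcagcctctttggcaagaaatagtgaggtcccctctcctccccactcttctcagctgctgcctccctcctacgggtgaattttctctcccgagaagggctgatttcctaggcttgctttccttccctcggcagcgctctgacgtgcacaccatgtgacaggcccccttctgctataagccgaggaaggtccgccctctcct
FOXK1: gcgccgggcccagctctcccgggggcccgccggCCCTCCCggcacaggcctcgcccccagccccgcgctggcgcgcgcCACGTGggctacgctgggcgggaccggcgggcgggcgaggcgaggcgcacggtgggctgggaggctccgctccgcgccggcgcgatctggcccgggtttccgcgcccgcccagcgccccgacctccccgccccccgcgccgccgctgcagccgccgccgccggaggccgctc
FOXD3: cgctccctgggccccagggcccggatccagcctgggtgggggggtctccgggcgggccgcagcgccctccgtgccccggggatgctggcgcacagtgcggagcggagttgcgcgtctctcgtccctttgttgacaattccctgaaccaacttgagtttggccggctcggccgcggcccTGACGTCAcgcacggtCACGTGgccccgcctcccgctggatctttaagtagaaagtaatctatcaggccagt
No letters of these motifs were found in the FOXD1 window. The FOXK1 window held CCCTCCC from base -217 and CACGTG from base -172, and the FOXD3 window held TGACGTCA from base -72 and CACGTG from base -56. RefSeq listed 43 start sites for 32 of the 42 members, taken from 250 bases before to 50 after each start. In these windows CCCTCCC was present in 37.2% of the member promoters and in 26.6% of all 35116 promoters. The median share of G and C letters was 66.3% in the member promoters and 58.7% in all promoters. The part of base content in the motif shares was not tested. The shares were 4.65% and 3.42% for TGTTTAC, 11.6% and 7.71% for TGANTCA, 2.33% and 1.85% for TGACGTCA, and 6.98% and 7.26% for CACGTG. None of these motifs contains another, a promoter with several counts for each, and a match is a run of letters, not a bound site.

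Total counts ranged from 33302292 to 44514692 per sample, so that 3 counts correspond to between 0.0674 and 0.0901 CPM, the unit in which each library has the same total, a floor that covers counting error only. CRLM1 (RP4-710M16.2 in the deposited tables) was counted 38704, 32751 and 35726 times in CRLM1-OE, 0 times in each Ctrl sample and 1951, 1777 and 1540 in the CRLM1-anti samples, where reads of the antisense insert cannot be told from sense reads without strand. Summed CPM of 8 epithelial markers was 11100 to 11200 in CRLM1-OE, 11700 to 11900 in Ctrl and 10200 to 10300 in CRLM1-anti, without overlap. Single epithelial markers moved both ways, and 2 passed higher and 4 lower in CRLM1-OE against Ctrl. The sum for 6 immune markers was 4.22 to 4.47 in CRLM1-OE, 3.46 to 3.86 in Ctrl and 3.04 to 3.45 in CRLM1-anti, without overlap. CD68, which is not limited to immune cells, gave most of it with 107 to 167 counts and passed higher in CRLM1-OE against CRLM1-anti (log2 fold change 0.39, adjusted p = 0.0108), while PTPRC, the pan-leukocyte marker, had at most 2 counts. The sum for 5 endothelial markers was 0.634 to 1.26 in CRLM1-OE, 0.579 to 0.601 in Ctrl and 0.513 to 0.719 in CRLM1-anti, with 7 to 35 counts of VWF, whose differences in CRLM1-OE did not pass, and at most 6 of PECAM1 or CDH5. The part of these markers in the forkhead results was not tested. Differences were tested with the quasi-likelihood test of edgeR, scaled by TMM factors and adjusted over all genes. Genes "passed" where the adjusted p did not exceed 0.05, and were "called" where they also differed 2-fold or more. With 3 samples a side, the smallest two-sided p of an exact permutation test is 0.1, so none was used.

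FOXD1 was the most abundant forkhead mRNA in every group. FOXD1 is a regulator of kidney stroma and retina development, and in HCT116 it alone gave between 23.5% and 33.7% of the summed forkhead FPKM (fragments scaled for gene length and library size, so that levels can be compared between genes). FOXK2 followed in all groups. In CRLM1-OE the order went on with FOXO3, FOXK1, FOXJ3, FOXJ2, FOXC1, FOXA3, FOXP4, FOXO4, FOXM1, FOXN3, FOXN2, FOXO1, FOXO6 and FOXL1. There the ranges of FOXJ3 and FOXJ2 overlapped, as did those of FOXC1 and FOXA3, of FOXN2 and FOXO1, and of FOXO1 and FOXO6. FOXJ3 came next after FOXK2 in both Ctrl and CRLM1-anti, and FOXK1 had rank 8 in Ctrl, 5 in CRLM1-anti and 4 in CRLM1-OE. These 16 members had a mean FPKM of at least 1 in a group and 26 stayed under it, of which 14 had at most 10 counts in every sample. FOXA1 and FOXA2, the gut pioneer factors, were among the low ones, with FPKM of 0.48 to 0.94 for FOXA1 and at most 0.08 for FOXA2, whereas FOXA3 reached 8.76.

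**Figure D1:**
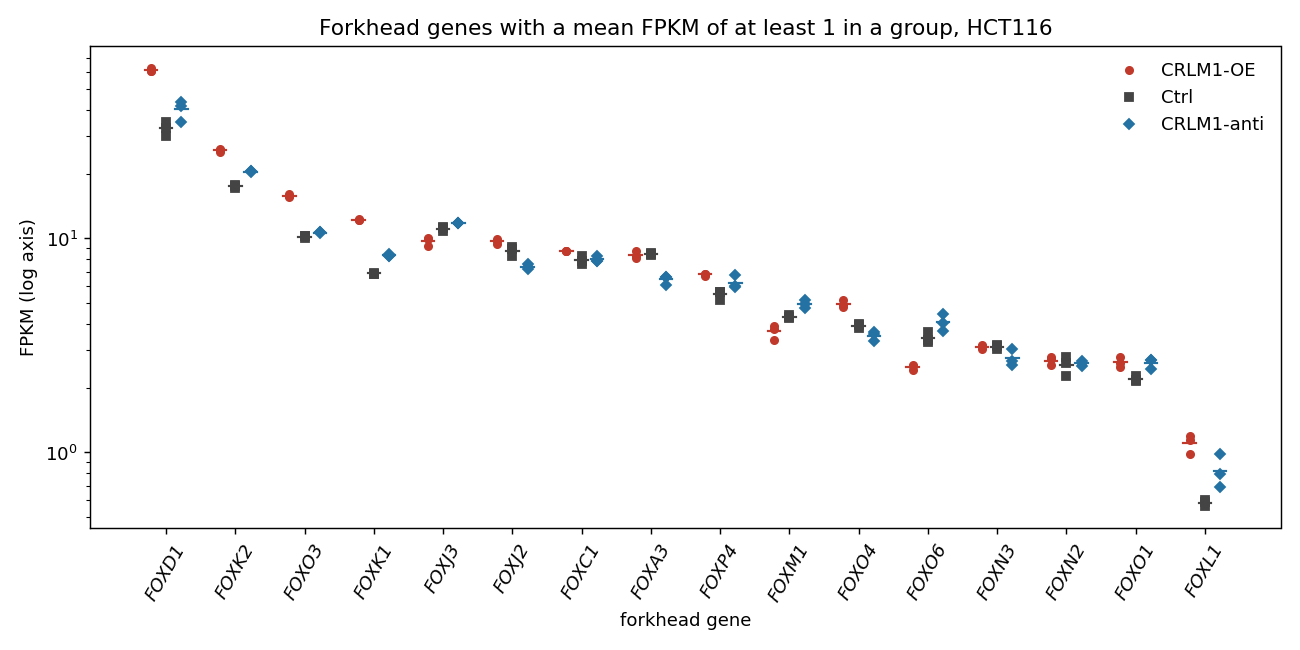
FPKM on a log axis for the 16 forkhead genes with a mean of at least 1 in a group, with 1 point per sample and a bar at each group mean (3 samples per group). FOXD1, FOXK2, FOXO3, FOXK1, FOXO4, FOXJ2 and FOXC1 of CRLM1-OE lie above all samples of both other groups, and FOXM1, FOXJ3 and FOXO6 lie below them. FPKM carries no TMM factor, and FOXJ2 and FOXC1 did not pass against Ctrl in the main test.

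Summed over all members, forkhead FPKM was 183.8, 186.0 and 181.6 in CRLM1-OE, 133.2, 136.0 and 128.0 in Ctrl, and 139.8, 148.0 and 149.0 in CRLM1-anti. The CRLM1-OE samples were higher than all others, and the other groups did not overlap. These sums carry no TMM factor. With total-count scaling, all genes averaging 10 counts or more had a median log2 fold change of 0.127 for CRLM1-OE against Ctrl. For CRLM1-anti against Ctrl it was 0.11. With TMM factors these medians were -0.0141 and 0.0051. The part of scaling in the gaps between the sums was not tested. FOXD1, FOXK2, FOXO3 and FOXK1 together made up 62.6% to 62.8% of the sum in CRLM1-OE, 50.3% to 51.3% in Ctrl and 53.5% to 55.8% in CRLM1-anti.

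With CRLM1-OE against Ctrl, 41 members were tested. FOXC2, FOXD3, FOXF1 and FOXH1 were called higher, that is 9.76% of the members beside 2.5% of all 29846 genes tested. None was called lower (0.915% of all genes) by edgeR, and none by DESeq2 or by limma on FPKM. At an unadjusted p under 0.05, 7 members were lower, and 1 of these, FOXJ1, by at least 2-fold. Among the 21 members with a mean count of at least 50, 8 passed higher (38.1%, beside 28.9% of 12928 genes) and 4 passed lower (19%, beside 36.5%). The median log2 fold change of the 25 members averaging 10 counts or more was 0.19, beside -0.01 for all genes of that depth. Total-count scaling moved the median of all genes of that depth to 0.13 and that of the members to 0.33.

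Against CRLM1-anti, no member was called higher by edgeR, DESeq2 or limma (3.09% of 30183 genes were), and 12 were higher at an unadjusted p under 0.05. FOXQ1, FOXD4L5, FOXJ1 and FOXL2NB were called lower in CRLM1-OE, or 10% of 40 members beside 2.56% of all genes. At a mean count of at least 50, 10 of 21 members passed higher (47.6%, beside 33.3% of 13014 genes) and 6 passed lower (28.6%, beside 38.7%). The 27 members with a mean count of at least 10 had a median of 0.08, beside -0.02.

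The antisense and empty plasmid lines also differed in forkhead genes. FOXD3, FOXD4, FOXD4L1, FOXD4L5, FOXL2NB, FOXN4 and FOXQ1 were called higher in CRLM1-anti than in Ctrl, or 16.7% of 42 members beside 0.683% of 29714 genes. No member was called lower (0.38% of all genes) by any of the 3 tools, and 4 were lower at an unadjusted p under 0.05. The called genes all had at most 42 counts in any sample. FOXD4, FOXD4L1 and FOXD4L5 are near-identical copies, so their calls cannot be taken as separate results, and FOXL2NB does not encode a forkhead protein. Whether reads were placed on the right copy was not tested. The share of 16.7% therefore cannot be read as a share of separate forkhead results. At a mean count of at least 50 the members stood near the background, with 6 higher (28.6%, beside 24.2% of 12846 genes) and 4 lower (19%, beside 26.9%). The median over 26 members was 0.14, beside 0.01 for all genes, and these became 0.25 and 0.11 with total-count scaling. Each pair of these comparisons shares a group of samples, so the 3 lists are not independent of each other.

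**Figure D2:**
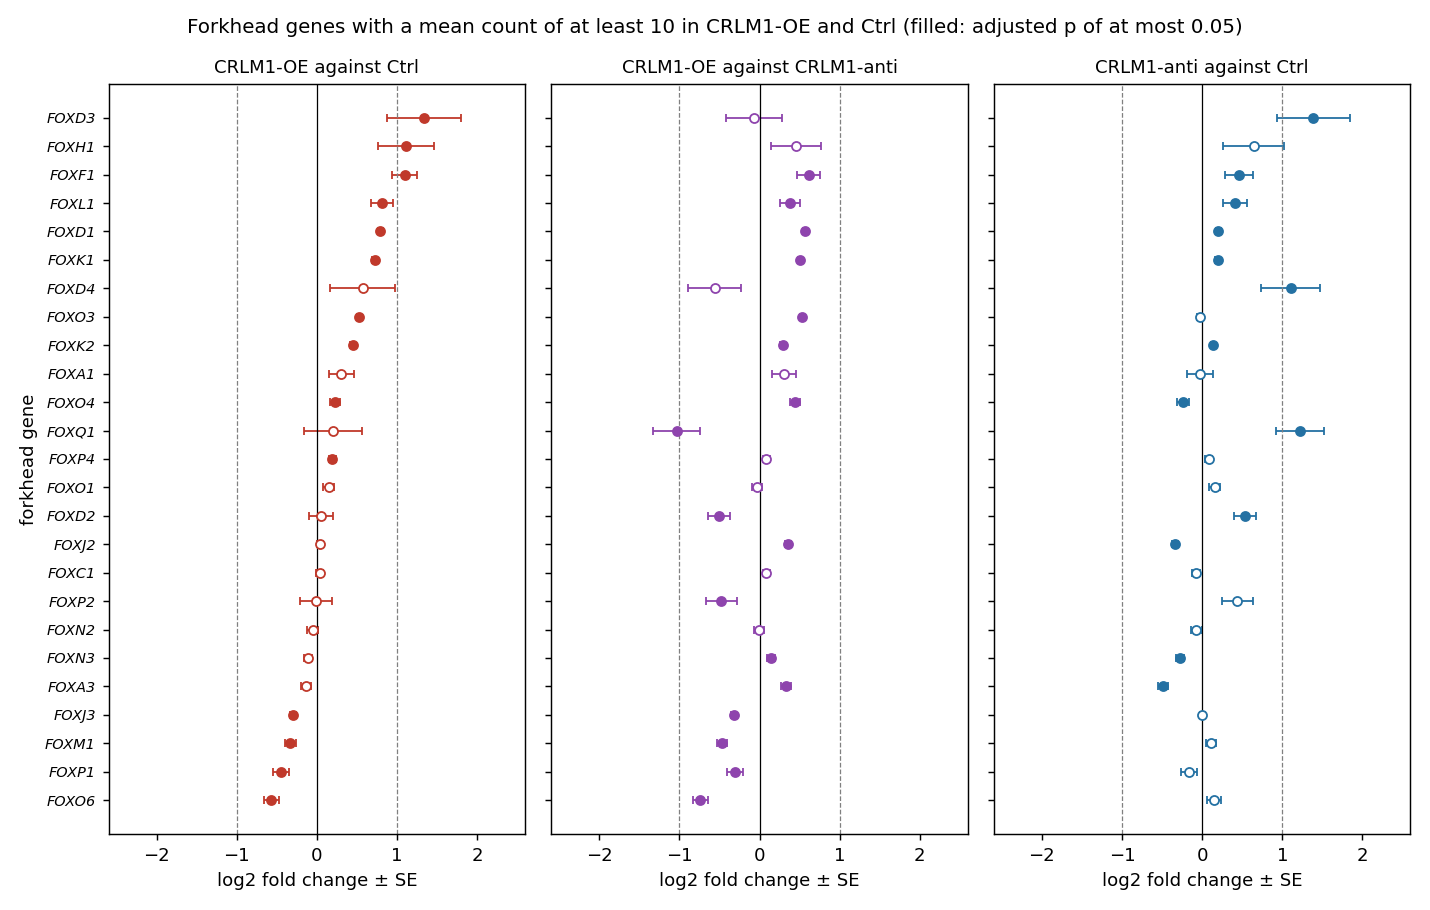
Log2 fold change ± SE (horizontal axis) of the 25 forkhead genes averaging 10 counts or more in CRLM1-OE and Ctrl, in the 3 comparisons (6 samples each). Filled points passed an adjusted p of 0.05 and dashed lines mark a 2-fold change. Most abundant genes lie inside the dashed lines with small errors, and the points beyond them (FOXD3, FOXH1, FOXF1, FOXQ1 and FOXD4) have wider errors.

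FOXD1 was raised in CRLM1-OE against both controls without reaching 2-fold. The gene (chr5:73444827-73448777 on GRCh38, GENCODE version 44, reverse strand) had FPKM of 60.54, 62.69 and 60.51 in CRLM1-OE, 32.93, 35.02 and 30.10 in Ctrl, and 35.14, 41.55 and 43.64 in CRLM1-anti. Every CRLM1-OE sample was higher than every other sample, and the lowest CRLM1-anti sample lay just above the highest Ctrl sample. The log2 fold change was 0.79 (SE 0.0307, adjusted p = 1.94e-143) against Ctrl and 0.57 (SE 0.0276, adjusted p = 4.08e-92) against CRLM1-anti. The smaller difference of 0.20 between CRLM1-anti and Ctrl (adjusted p = 7.8e-09) did not pass with DESeq2 (adjusted p = 0.132) or limma. FOXD1 shares 424 exon bases with FOXD1-AS1 on the opposite strand, and FOXD1-AS1 was itself higher in CRLM1-OE than in Ctrl by 0.80 (SE 0.24, adjusted p = 0.0031). Reads of this pair cannot be told apart without strand, and FOXD1-AS1 held 22 to 54 counts where FOXD1 held 2504 to 6110.

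FOXK1 and FOXK2, which repress autophagy genes and promote glycolysis and recruit the SIN3 complex and BAP1, rose together. FOXK1 (chr7:4682295-4771442, forward strand) had FPKM of 12.23, 12.17 and 12.35 in CRLM1-OE, 6.84, 6.89 and 6.86 in Ctrl, and 8.47, 8.31 and 8.27 in CRLM1-anti. The 3 groups were fully apart, with a spread within a group far smaller than the gaps. The log2 fold change of FOXK1 was 0.72 (SE 0.03, adjusted p = 1.29e-125) against Ctrl, 0.51 (adjusted p = 1.19e-77) against CRLM1-anti, and 0.19 (adjusted p = 9.81e-09) between CRLM1-anti and Ctrl. FOXK2 had FPKM of 26.23, 25.94 and 25.45, then 17.82, 17.66 and 17.16, and 20.46, 20.59 and 20.59 in the same order of groups. It showed the same order without overlap, with log2 fold changes of 0.45 (adjusted p = 8.28e-53), 0.29 (adjusted p = 8.58e-28) and 0.14 (adjusted p = 2.55e-05). On the opposite strand FOXK2 shares 1190 and 162 exon bases with long noncoding RNA genes and 53 with the protein-coding gene WDR45B.

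Among the FOXO genes, whose proteins respond to insulin and stress signals, FOXO3 and FOXO4 rose and FOXO6 fell. FOXO3 (chr6:108559835-108684774, forward strand) had FPKM of 16.18, 15.62 and 15.79 in CRLM1-OE, 10.07, 10.25 and 10.25 in Ctrl, and 10.67, 10.71 and 10.59 in CRLM1-anti. Only CRLM1-OE stood well apart, with log2 fold changes of 0.52 (SE 0.0303, adjusted p = 4.44e-65) against Ctrl and 0.53 (SE 0.0279, adjusted p = 4.22e-78) against CRLM1-anti. Between the control lines the FOXO3 difference was -0.03 (adjusted p = 0.598), with the opposite sign under total-count scaling. FOXO4 had FPKM of 4.79 to 5.18 in CRLM1-OE, 3.80 to 3.99 in Ctrl and 3.32 to 3.64 in CRLM1-anti, which did not overlap. It was higher in CRLM1-OE by 0.23 (adjusted p = 0.00236) and 0.44 (adjusted p = 2.14e-10). FOXO4 was lower in CRLM1-anti than in Ctrl by -0.24 (adjusted p = 0.00491), a difference that did not pass with total-count scaling (adjusted p = 0.188) or without CRLM1-anti replicate 3 (adjusted p = 0.0623). FOXO6, a form known from the nervous system and liver, had FPKM of 2.44 to 2.55, 3.28 to 3.67 and 3.69 to 4.44 in CRLM1-OE, Ctrl and CRLM1-anti. Its log2 fold change was -0.57 (SE 0.0919, adjusted p = 4.93e-09) against Ctrl and -0.74 (SE 0.0887, adjusted p = 7.59e-16) against CRLM1-anti. FOXO1 did not pass in any of the 3 main tests, with 0.15 (adjusted p = 0.0862), -0.03 (adjusted p = 0.742) and 0.15 (adjusted p = 0.089) for CRLM1-OE against Ctrl, CRLM1-OE against CRLM1-anti and CRLM1-anti against Ctrl. The first passed in 5 of 15 alternatives, with values up to 0.29, and the last in 6 of 15, with values up to 0.26. FOXO1 shares 1352 exon bases with a long noncoding RNA gene on the same strand.

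FOXF1, FOXC2 and FOXL1 are neighbours on chromosome 16, with 51406 bases between FOXF1 and FOXC2 and 6639 between FOXC2 and FOXL1, and all passed higher in CRLM1-OE against Ctrl. FOXF1, a Hedgehog-responsive factor of gut and lung mesenchyme (chr16:86510527-86515422, forward strand), had 145, 136 and 151 counts in CRLM1-OE, 77, 53 and 58 in Ctrl, and 102, 77 and 92 in CRLM1-anti. The CRLM1-OE counts were above all others, and scaled to library size the control lines did not overlap either. FOXF1 rose by 1.10 (SE 0.155, 2.14-fold, adjusted p = 1.08e-11) against Ctrl and by 0.61 (SE 0.141, adjusted p = 6.2e-05) against CRLM1-anti. Between CRLM1-anti and Ctrl it differed by 0.46 (adjusted p = 0.0339), and this did not pass without CRLM1-anti replicate 1 (adjusted p = 0.12), CRLM1-anti replicate 3 (0.136) or Ctrl replicate 2 (0.116), or with DESeq2 (0.0991) or limma.

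FOXL1, which marks the telocytes that feed Wnt signals to intestinal crypts, had 210, 158 and 157 counts in CRLM1-OE, 107, 89 and 81 in Ctrl, and 164, 123 and 100 in CRLM1-anti. Scaled to library size, CRLM1-OE and Ctrl were apart and CRLM1-anti lay between them. The log2 fold change was 0.81 (SE 0.136, adjusted p = 1.78e-08) against Ctrl, under 2-fold. For CRLM1-OE against CRLM1-anti it was 0.38 (adjusted p = 0.00886), which did not pass without CRLM1-OE replicate 1 (0.0783) or CRLM1-anti replicate 3 (0.141). For CRLM1-anti against Ctrl it was 0.41 (adjusted p = 0.021), which did not pass without CRLM1-anti replicate 1 (0.344) or Ctrl replicate 3 (0.051). Both FOXL1 differences failed with DESeq2 and limma.

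FOXC2, a factor of lymphatic vessels and mesenchyme, was near the floor with 4, 8 and 7 counts in CRLM1-OE, 0, 0 and 2 in Ctrl, and 2, 8 and 3 in CRLM1-anti. CRLM1-OE and Ctrl did not overlap, and CRLM1-anti overlapped CRLM1-OE. Its summed counts of 19 and 2 gave a ratio of 9.72 per total count in CRLM1-OE against Ctrl (95% exact interval 2.35 to 86.1, counting error only), with an adjusted p of 0.0119. The call was lost without CRLM1-OE replicate 2 (adjusted p = 0.0926), Ctrl replicate 1 (0.0829) or Ctrl replicate 2 (0.067). FOXC2 shares 231 exon bases with FOXC2-AS1 on the opposite strand. The lncRNA FENDRR begins 1427 bases from FOXF1 on the opposite strand and had at most 4 counts in any sample.

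Summed CPM of 6 mesenchymal markers moved with these genes, from 8.98 to 9.62 in Ctrl and 9.7 to 10.8 in CRLM1-anti to 16 to 19.2 in CRLM1-OE. COL1A1 gave nearly all of it and passed higher in CRLM1-OE against Ctrl by 0.75 (adjusted p = 1.01e-22), whereas COL1A2 and PDGFRA had at most 1 count and COL3A1 and DCN at most 3 in any sample. The part of other cells in these differences was not tested. In bulk RNA, a change in how many cells express a gene and a change in RNA per cell cannot be told apart.

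FOXD3 and FOXH1 act in early embryos, FOXD3 in pluripotent cells and the neural crest and FOXH1 as the partner of SMAD2 and SMAD3 under Nodal. FOXD3 (chr1:63322567-63325128, forward strand) had 21, 11 and 18 counts in CRLM1-OE, 6, 8 and 4 in Ctrl, and 16, 20 and 14 in CRLM1-anti. Ctrl lay below both other groups, which overlapped each other. The log2 fold change was 1.34 (SE 0.463, 2.53-fold, adjusted p = 0.0125) for CRLM1-OE against Ctrl and 1.39 (SE 0.459, 2.62-fold, adjusted p = 0.0114) for CRLM1-anti against Ctrl. CRLM1-OE and CRLM1-anti differed by -0.07 (SE 0.353, adjusted p = 0.903). The call against Ctrl was lost without CRLM1-OE replicate 1 (adjusted p = 0.0631), and the one between CRLM1-anti and Ctrl without CRLM1-anti replicate 2 (0.0722). Leaving out Ctrl replicate 1 put the first just past the threshold, and neither passed with DESeq2 (adjusted p = 0.0625 and 0.0585). FOXD3 shares 618 exon bases with FOXD3-AS1 on the opposite strand. FOXD3-AS1 had 100 to 164 counts in CRLM1-OE, 89 to 90 in Ctrl and 62 to 70 in CRLM1-anti, and its log2 fold change was 0.39 (adjusted p = 0.026) for CRLM1-OE against Ctrl but -0.53 (adjusted p = 0.0109) for CRLM1-anti against Ctrl.

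FOXH1 (chr8:144473412-144475849, reverse strand) had 25, 26 and 26 counts in CRLM1-OE, 13, 9 and 11 in Ctrl, and 17, 18 and 19 in CRLM1-anti. The groups did not overlap. FOXH1 was called against Ctrl at 1.11 (SE 0.351, 2.16-fold, adjusted p = 0.00538), passed with each replicate left out and had an adjusted p of 0.0372 with DESeq2. Neither the difference of 0.45 from CRLM1-anti (adjusted p = 0.301) nor that of 0.64 between CRLM1-anti and Ctrl (adjusted p = 0.267) passed. It shares 791 exon bases with KIFC2 on the opposite strand.

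FOXM1, FOXJ3, FOXP1 and FOXO6 were the members that fell in CRLM1-OE against Ctrl, and each also fell against CRLM1-anti, a comparison with the same CRLM1-OE samples. FOXM1, the activator of mitotic genes, had FPKM of 3.92, 3.79 and 3.37 in CRLM1-OE, 4.30, 4.37 and 4.23 in Ctrl, and 4.95, 5.17 and 4.75 in CRLM1-anti. The groups did not overlap, and the log2 fold change was -0.33 (SE 0.0654, adjusted p = 2.39e-06) against Ctrl and -0.47 (SE 0.0632, adjusted p = 8.14e-13) against CRLM1-anti. Between CRLM1-anti and Ctrl the FOXM1 difference was 0.12 (adjusted p = 0.199) and passed in 3 of 15 alternatives. FOXM1 shares 782 exon bases with ITFG2 on the opposite strand. FOXJ3, a factor of muscle and testis, had FPKM of 9.23 to 10.10, 10.78 to 11.28 and 11.79 to 11.86 in CRLM1-OE, Ctrl and CRLM1-anti. It was lower in CRLM1-OE by -0.30 (adjusted p = 3.64e-17) and -0.32 (adjusted p = 2.65e-23).

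FOXP proteins are repressors with a zinc finger and leucine zipper, and FOXP1 and FOXP4 went opposite ways against Ctrl. FOXP1 had FPKM of 0.55 to 0.61 in CRLM1-OE, 0.65 to 0.86 in Ctrl and 0.70 to 0.71 in CRLM1-anti, and was lower in CRLM1-OE by -0.45 (adjusted p = 4.23e-05) and -0.31 (adjusted p = 0.00788). Limma on FPKM passed neither FOXP1 difference, and the second did not pass without CRLM1-OE replicate 3 (adjusted p = 0.0611). FOXP1 shares 2539 exon bases with another protein-coding gene on the same strand. On the opposite strand it shares 57 with a long noncoding RNA gene. FOXP4 had FPKM of 6.71 to 6.85 in CRLM1-OE, 5.18 to 5.65 in Ctrl and 5.91 to 6.74 in CRLM1-anti. It rose by 0.19 (adjusted p = 6.28e-05) against Ctrl, and its difference of 0.08 from CRLM1-anti did not pass (adjusted p = 0.11). FOXP2, the speech-linked relative, held 38 to 81 counts and passed only against CRLM1-anti, at -0.48 (adjusted p = 0.0351). That result did not pass without CRLM1-OE replicate 1 (0.358) or 2 (0.0821), without CRLM1-anti replicate 1 (0.0858) or 2 (0.142), with total-count scaling (0.0761), or with DESeq2 (0.152). FOXP2 shares 269 exon bases with a long noncoding RNA gene on the opposite strand. FOXP3, the master factor of regulatory T cells, had at most 3 counts.

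FOXA3, FOXJ2 and FOXN3 were lower in CRLM1-anti than in Ctrl and did not pass in the main test between CRLM1-OE and Ctrl. FOXA3, a factor of liver and gut epithelium, had FPKM of 8.09 to 8.76 in CRLM1-OE, 8.40 to 8.58 in Ctrl and 6.09 to 6.64 in CRLM1-anti. CRLM1-anti was below all other samples, by -0.49 against Ctrl (SE 0.0659, adjusted p = 2.37e-12), and CRLM1-OE exceeded it by 0.33 (adjusted p = 1.57e-06). FOXJ2 had FPKM of 9.47 to 9.98, 8.31 to 9.10 and 7.17 to 7.63 in CRLM1-OE, Ctrl and CRLM1-anti. These ranges did not overlap, but the FOXJ2 difference of 0.033 between CRLM1-OE and Ctrl (adjusted p = 0.556) passed only in 3 of 15 alternatives, with total counts or limma, at up to 0.17. It differed by -0.34 between CRLM1-anti and Ctrl (adjusted p = 1.01e-17) and by 0.35 between CRLM1-OE and CRLM1-anti (adjusted p = 3.14e-21). FOXN3, a repressor linked to the DNA damage checkpoint, differed by -0.27 between CRLM1-anti and Ctrl (adjusted p = 2.02e-06), although its FPKM of 3.03 in CRLM1-anti replicate 3 equalled the lowest Ctrl value, and limma did not pass it. Its difference of 0.14 between CRLM1-OE and CRLM1-anti (adjusted p = 0.0202) was lost without CRLM1-OE replicate 1 (0.0906), CRLM1-anti replicate 1 (0.337) or CRLM1-anti replicate 2 (0.0687), and with DESeq2 (0.0696). FOXN3 shares exon bases with long noncoding RNA genes, 282 on the same strand and 832 and 229 on the opposite strand.

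FOXC1 and FOXN2 passed in none of the 3 main tests. FOXC1, a factor of eye and vessel development, had FPKM of 8.74 to 8.78 in CRLM1-OE, 7.61 to 8.31 in Ctrl and 7.86 to 8.29 in CRLM1-anti. CRLM1-OE was above all other samples in FPKM, which carries no TMM factor. The log2 fold changes of FOXC1 were 0.032, 0.086 and -0.076 for CRLM1-OE against Ctrl, CRLM1-OE against CRLM1-anti and CRLM1-anti against Ctrl. The first passed in 3 of 15 alternatives and the second in 5 of 15, reaching 0.17 and 0.15. FOXN2 ranged over FPKM of 2.28 to 2.80 in all samples, with log2 fold changes of -0.053, -0.0048 and -0.071. FOXD2, a developmental relative of FOXD1, had 89 to 139 counts in CRLM1-OE, 74 to 117 in Ctrl and 144 to 151 in CRLM1-anti. It was higher in CRLM1-anti by 0.54 against Ctrl (adjusted p = 0.000728), and CRLM1-OE was lower than CRLM1-anti by -0.51 (adjusted p = 0.000669).

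The remaining called members were highest in CRLM1-anti. FOXQ1, a target of Wnt signalling that is often raised in colorectal cancer, had 21, 12 and 22 counts in CRLM1-OE, 14, 16 and 14 in Ctrl, and 42, 32 and 34 in CRLM1-anti. All CRLM1-anti samples lay above all others, and CRLM1-OE overlapped Ctrl. FOXQ1 differed by 1.22 (SE 0.3, 2.32-fold, adjusted p = 0.00032) between CRLM1-anti and Ctrl and by -1.04 (SE 0.29, adjusted p = 0.00122) between CRLM1-OE and CRLM1-anti. Both passed with each replicate left out and with DESeq2. Between CRLM1-OE and Ctrl the difference was 0.20 (adjusted p = 0.714). FOXQ1 lies 74817 bases from FOXF2 on chromosome 6, and FOXF2, the second mesenchymal FOXF factor, had at most 1 count.

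FOXD4 and its copies FOXD4L1, FOXD4L3, FOXD4L4, FOXD4L5 and FOXD4L6 are near-identical genes on chromosomes 9 and 2, and only uniquely mapped reads were counted, so the share of each copy is uncertain. FOXD4 had 18, 16 and 14 counts in CRLM1-OE, 12, 9 and 9 in Ctrl, and 25, 19 and 24 in CRLM1-anti. FOXD4L1 had 8, 11 and 13, then 7, 6 and 2, and 18, 15 and 10 in the same order, and FOXD4L5 had 9, 3 and 4, then 7, 3 and 1, and 12, 13 and 12. CRLM1-anti exceeded Ctrl in all 3 without overlap. Summed over the 6 copies, counts were 35, 31 and 35 in CRLM1-OE, 30, 20 and 13 in Ctrl, and 63, 53 and 51 in CRLM1-anti, and scaled to library size the groups did not overlap.

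For CRLM1-anti against Ctrl the log2 fold changes were 1.11 for FOXD4 (SE 0.366, adjusted p = 0.0119), 1.43 for FOXD4L1 (SE 0.5, adjusted p = 0.0178) and 1.67 for FOXD4L5 (SE 0.567, adjusted p = 0.0136). FOXD4 was lost without CRLM1-anti replicate 3 (adjusted p = 0.0553) and with DESeq2 (0.0628). FOXD4L1 was lost without CRLM1-anti replicate 1 (0.0993), CRLM1-anti replicate 2 (0.0535) or Ctrl replicate 3 (0.11), and with DESeq2 (0.0781). FOXD4L5 was lost without Ctrl replicate 3 (0.0944). FOXD4L5 was also lower in CRLM1-OE than in CRLM1-anti by -1.27 (SE 0.516, adjusted p = 0.0368), and this was lost with DESeq2 and in every leave-one-out fit except the one without CRLM1-OE replicate 1, with adjusted p between 0.0521 (without CRLM1-anti replicate 1) and 0.127 (without CRLM1-OE replicate 2).

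FOXN4, which acts in retina and spinal cord progenitors, had 13, 7 and 10 counts in CRLM1-OE, 9, 2 and 6 in Ctrl, and 17, 13 and 14 in CRLM1-anti. Scaled to library size the CRLM1-anti samples were above all others. CRLM1-anti differed from Ctrl by 1.30 (SE 0.482, 2.45-fold, adjusted p = 0.0294). It was lost without CRLM1-anti replicate 1 (0.0936), CRLM1-anti replicate 3 (0.0657) or Ctrl replicate 2 (0.198), where the value fell to 0.95, and with DESeq2 (0.103).

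FOXJ1, the master factor of motile cilia, had 2, 1 and 2 counts in CRLM1-OE, 7, 8 and 1 in Ctrl, and 8, 7 and 5 in CRLM1-anti. CRLM1-OE was below CRLM1-anti without overlap, while Ctrl spanned both. The summed counts of 20 in CRLM1-anti and 5 in CRLM1-OE gave a ratio of 4.01 (95% exact interval 1.46 to 13.7, counting error only), with an adjusted p of 0.04. No leave-one-out fit passed (adjusted p from 0.0532 without CRLM1-anti replicate 3 to 0.122 without CRLM1-anti replicate 1), nor did DESeq2 (0.0935).

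FOXL2NB had 0, 0 and 1 counts in CRLM1-OE, 1, 0 and 1 in Ctrl, and 7, 4 and 5 in CRLM1-anti. All CRLM1-anti samples were above the others, which were at or under 1 count. The ratio of summed counts was 8.21 for CRLM1-anti against Ctrl (95% exact interval 1.93 to 73.6, adjusted p = 0.0389) and 16.1 for CRLM1-anti against CRLM1-OE (2.49 to 673, adjusted p = 0.00632). The difference from Ctrl did not pass in any leave-one-out fit (adjusted p from 0.0578 without CRLM1-anti replicate 2 to 0.165 without CRLM1-anti replicate 1) or in a fit of all 9 samples (0.059), and the one from CRLM1-OE passed in all.

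**Figure D3:**
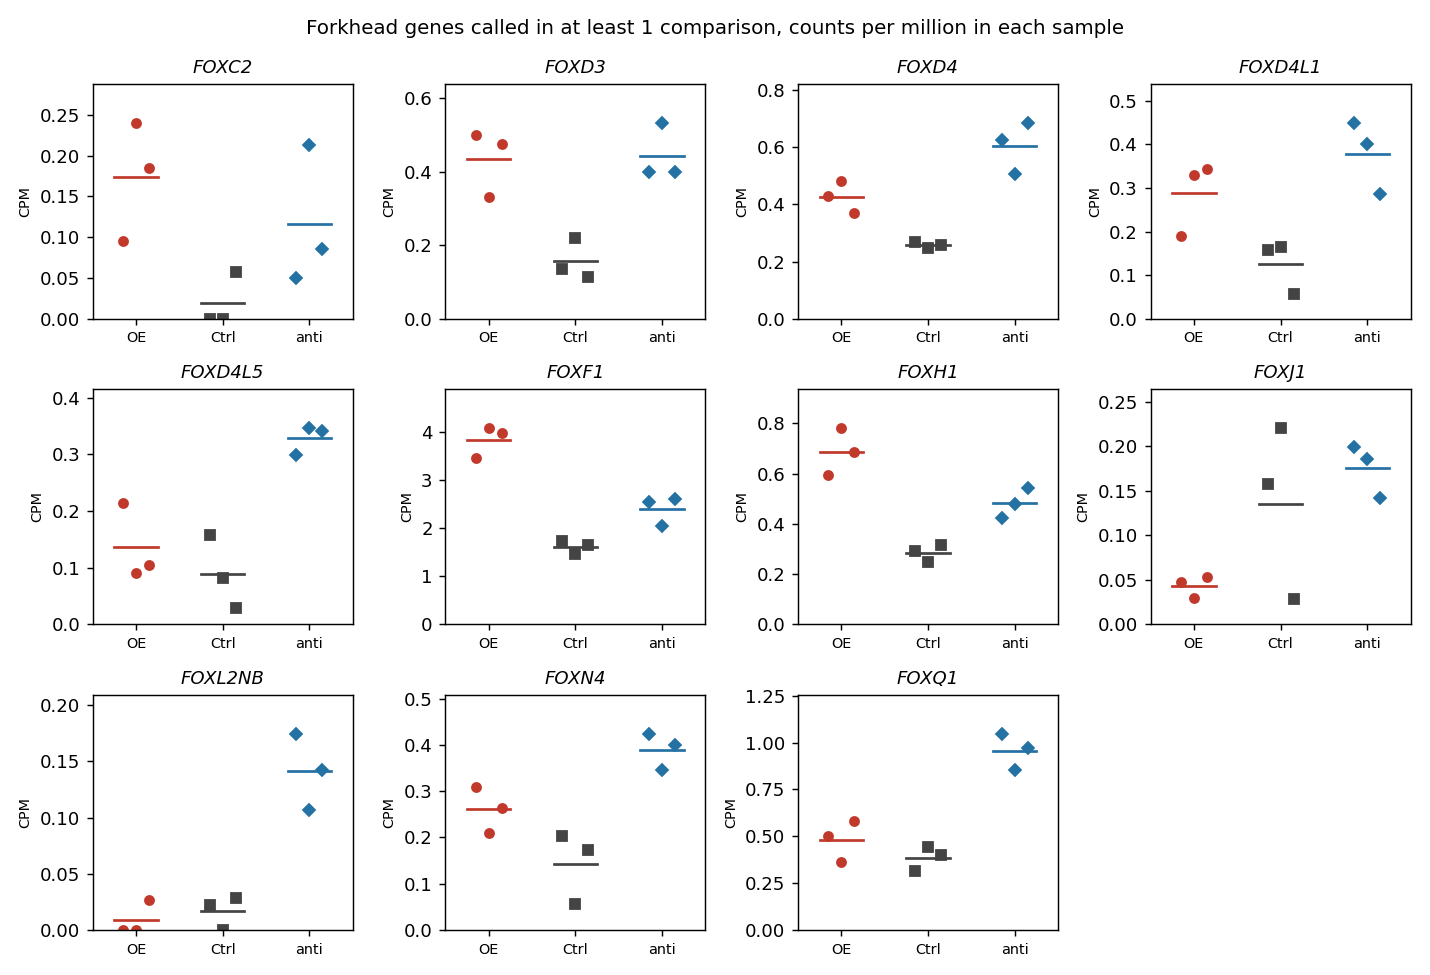
CPM in each sample (vertical axes start at 0) for the 11 forkhead genes called in at least 1 comparison, with 3 samples per group and a bar at each mean. FOXF1 is highest in CRLM1-OE, FOXD3 is raised alike in CRLM1-OE and CRLM1-anti, and FOXQ1, FOXD4, FOXD4L5, FOXL2NB and FOXN4 are highest in CRLM1-anti.

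The other 12 members are not described singly. Of these, 11 had at most 10 counts in every sample, and the other, FOXA1, had up to 129 counts and log2 fold changes of 0.30, 0.31 and -0.03, none of which passed.

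The genes that forkhead factors work with were read from lists of textbook roles, at a mean count of at least 50 unless stated. Among FOXO targets, 14 of 24 passed higher in CRLM1-OE against Ctrl (58.3%, beside 28.9% of all genes) and 5 passed lower (20.8%, beside 36.5%). IRS2, the insulin receptor substrate, had FPKM of 9.89, 9.91 and 9.73 in CRLM1-OE, 3.14, 3.19 and 2.93 in Ctrl, and 3.42, 3.59 and 3.68 in CRLM1-anti. It was called against both, at 1.56 (SE 0.0398) and 1.42 (SE 0.0372), each with an adjusted p of at most 1e-300. BCL6, a repressor of germinal centre fame, was called against CRLM1-anti at 1.18 (SE 0.0546, adjusted p = 9.73e-102) and passed against Ctrl at 0.55. Against CRLM1-anti 15 of the FOXO targets passed higher (62.5%, beside 33.3%) and 7 lower (29.2%, beside 38.7%). In CRLM1-anti, 4 passed higher than in Ctrl (16.7%, beside 24.2%) and 9 lower (37.5%, beside 26.9%).

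The upstream regulators of FOXO split. In CRLM1-OE against Ctrl 7 of 24 passed higher (29.2%) and 6 lower (25%), beside 28.9% and 36.5% of all genes, and against CRLM1-anti 6 of 23 passed higher (26.1%, beside 33.3%) and 13 lower (56.5%, beside 38.7%). For CRLM1-anti against Ctrl, 9 passed higher (39.1%, beside 24.2%) and 4 lower (17.4%, beside 26.9%). SGK1 and SGK2, kinases that phosphorylate FOXO3, were the called ones. SGK1 had 239, 202 and 259 counts in CRLM1-OE, 135, 109 and 89 in Ctrl, and 100, 99 and 90 in CRLM1-anti. It was called against CRLM1-anti at 1.21 (SE 0.125, adjusted p = 4.13e-21) and was 0.97 above Ctrl (adjusted p = 3.11e-14). SGK2, with 9 to 42 counts, was called at 1.13 (adjusted p = 0.000528) against Ctrl and 1.03 (adjusted p = 0.00117) against CRLM1-anti.

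Most FOXM1 targets were lower in CRLM1-anti than in Ctrl. In CRLM1-OE against Ctrl 4 of 24 passed higher (16.7%, beside 28.9%) and 7 lower (29.2%, beside 36.5%). In CRLM1-anti, where FOXM1 itself did not pass against Ctrl, none of 24 targets passed higher than in Ctrl (beside 24.2%) and 17 passed lower (70.8%, beside 26.9%), with a list median of -0.32 beside 0.01. For CRLM1-OE against CRLM1-anti 12 passed higher (50%, beside 33.3%) and 3 lower (12.5%, beside 38.7%). CDC20, the activator of the anaphase-promoting complex, had FPKM of 104.98, 103.07 and 101.48 in CRLM1-OE, 56.13, 58.71 and 57.23 in Ctrl, and 42.19, 41.68 and 42.90 in CRLM1-anti. It was called against CRLM1-anti at 1.24 (SE 0.0263) and was 0.73 above Ctrl (SE 0.0275). CENPE, the mitotic kinesin, was called against CRLM1-anti at 1.36 (SE 0.237, adjusted p = 4.43e-08), with 43 to 76 counts in CRLM1-OE and 17 to 31 in CRLM1-anti.

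Hedgehog genes, which act upstream of FOXF1 and FOXL1 in the gut, passed in CRLM1-OE in 1 direction. Against each control line 4 of 8 passed higher (50%, beside 28.9% for Ctrl and 33.3% for CRLM1-anti) and none lower (beside 36.5% and 38.7%). Between the control lines none of 8 passed, where 24.2% of all genes were higher and 26.9% lower. GLI2, the main activator of Hedgehog targets, had 227, 202 and 194 counts in CRLM1-OE, 66, 53 and 46 in Ctrl, and 79, 72 and 44 in CRLM1-anti. CRLM1-OE was above all others, by 1.81 (SE 0.147, adjusted p = 1.24e-33) against Ctrl and 1.62 (SE 0.14, adjusted p = 1.63e-29) against CRLM1-anti. Among mesenchymal partners of FOXF1 and FOXF2, 2 of 5 passed higher (40%, beside 28.9%) and 1 lower (20%, beside 36.5%) against Ctrl, and 3 of 5 passed higher (60%, beside 33.3%) and none lower against CRLM1-anti. In CRLM1-anti against Ctrl none of 5 passed higher and 3 passed lower (60%, beside 26.9%). The called one, at 3 to 21 counts in all samples, was the integrin ITGB3, at 1.15 (adjusted p = 0.0344) against Ctrl and 1.36 (adjusted p = 0.00989) against CRLM1-anti.

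Of the Nodal and FOXH1 list, 4 of 8 passed higher (50%, beside 28.9%) and 2 lower (25%, beside 36.5%) against Ctrl. Against CRLM1-anti 3 passed higher (37.5%, beside 33.3%) and 4 lower (50%, beside 38.7%), and for CRLM1-anti against Ctrl 2 passed higher (25%, beside 24.2%) and 1 lower (12.5%, beside 26.9%). ACVR1C, a Nodal receptor, had 76, 50 and 78 counts in CRLM1-OE, 44, 32 and 16 in Ctrl, and 29, 26 and 31 in CRLM1-anti. CRLM1-OE stood above both, and ACVR1C was called at 1.04 (adjusted p = 9.17e-06) against Ctrl and 1.17 (adjusted p = 4.89e-07) against CRLM1-anti. INHBB, an activin subunit with 3 to 32 counts, was called at 1.15 (adjusted p = 0.00576) and 1.53 (adjusted p = 0.000225) in the same comparisons. Neither passed between CRLM1-anti and Ctrl.

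In the ciliary list, 1 of 7 passed higher (14.3%, beside 28.9%) and 2 lower (28.6%, beside 36.5%) against Ctrl, and 2 passed in each direction against CRLM1-anti (28.6%, beside 33.3% higher and 38.7% lower). None of these shares exceeded that of all genes. For CRLM1-anti against Ctrl 0 of 7 passed higher (beside 24.2%) and 2 passed lower (28.6%, near the 26.9% of all genes). MCIDAS, which acts above FOXJ1 in cells that form many cilia, had 48, 49 and 47 counts in CRLM1-OE, 92, 66 and 63 in Ctrl, and 84, 110 and 104 in CRLM1-anti. It was lower in CRLM1-OE without overlap, at -0.72 (adjusted p = 0.00103) against Ctrl and called at -1.11 (SE 0.18, adjusted p = 3.78e-09) against CRLM1-anti. In the FOXA list of gut partners and targets 3 of 8 passed higher (37.5%, beside 28.9%) and 2 lower (25%, beside 36.5%) against Ctrl. GATA6 rose by 0.77 (adjusted p = 1.64e-25) and HNF4A by 0.31 (adjusted p = 0.000864). KLF5 passed lower by 0.11 on the log2 scale with TMM factors (adjusted p = 0.00368). Its mean FPKM, which carries no such factor, was 17.93 in CRLM1-OE and 17.92 in Ctrl, so the fall depends on the scaling. None of the list was called, nor was any of the 16 FOXP and FOXK cofactors, of which 6 passed higher (37.5%, beside 28.9%) and 8 lower (50%, beside 36.5%). Among those higher, SIN3B differed by 0.77 (adjusted p = 1.22e-92) and GATAD2A by 0.38 (adjusted p = 8.36e-39). Among those lower, HDAC2 differed by -0.28 (adjusted p = 4.94e-16) and SIN3A, the paralog of SIN3B, by -0.26 (adjusted p = 2.39e-08), both chosen after their values were seen.

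**Figure D4:**
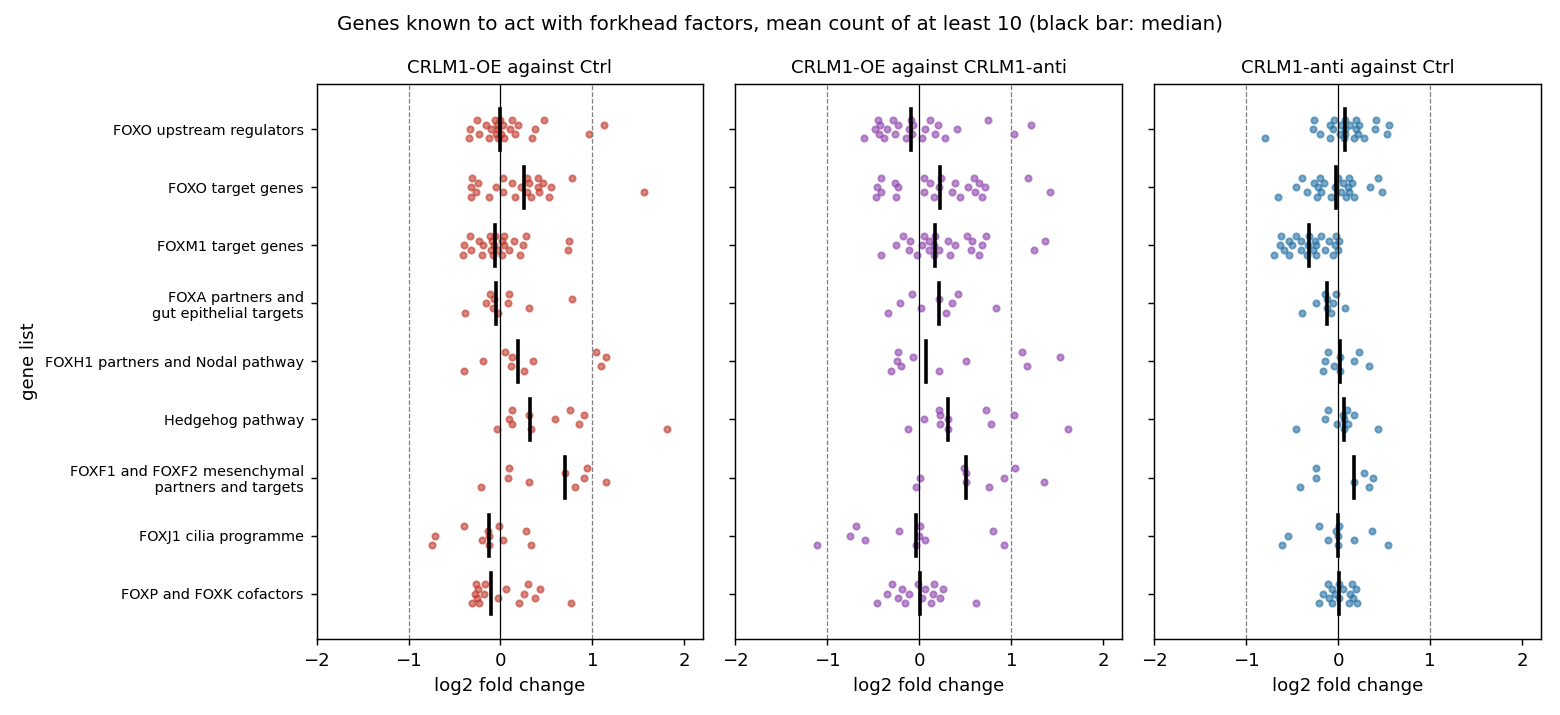
Log2 fold change (horizontal axis) of the genes of 9 lists tied to forkhead factors with a mean count of at least 10, in the 3 comparisons, with 1 point per gene and a black bar at the list median. FOXM1 targets lie mostly left of 0 in CRLM1-anti against Ctrl (median -0.32), and no Hedgehog gene lies far left of 0 in CRLM1-OE against either control.

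Of 8 noncoding genes named for or lying beside forkhead genes, none was called in any comparison by edgeR, where 2.5%, 3.09% and 0.683% of all genes were called higher and 0.915%, 2.56% and 0.38% lower in the 3 comparisons. Of the 4 with a mean count of at least 50, 3 passed higher and 0 lower in CRLM1-OE against Ctrl (beside 28.9% and 36.5% of all genes), and 2 passed higher and 1 lower against CRLM1-anti (beside 33.3% and 38.7%). Between CRLM1-anti and Ctrl 2 of 3 passed higher and 1 lower (beside 24.2% and 26.9%). FOXO3B, which the deposited annotation does not type as protein-coding, is among the 8 by its name. It lies on chromosome 17, apart from FOXO3 on chromosome 6. Its counts were 56 to 79 in CRLM1-OE, 44 to 54 in Ctrl and 40 to 48 in CRLM1-anti. The part of FOXO3 reads in these counts was not tested. FOXD1-AS1 and FOXD3-AS1 are described with their partners above because they share exon bases with them, and were chosen after their values were seen.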

How the data were processed

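The members, gene lists and tests were chosen with earlier results of these data known. Per the labels and the study's methods, reads were trimmed, aligned to GRCh38 (Gencode version 23) by TopHat2, and uniquely mapped reads were counted per gene. The authors deposited these counts without normalization and FPKM values scaled for exon length and mapped fragments. Use of strand in counting is not given in the sources used here. Each comparison took 3 samples against 3, without a covariate, through the quasi-likelihood test of edgeR 4.0.16 (R 4.3.3) with TMM factors. Genes with no count in the 6 samples were left out, and p-values were adjusted by Benjamini-Hochberg over the rest. SE is the absolute log2 fold change over the root of F and is approximate. Alternatives were RLE factors, total counts, filterByExpr, at least 10 counts in every sample, DESeq2 1.42.0, limma 3.58.1 on log2(FPKM + 0.1) and log2(FPKM + 1), all 9 samples, the replicate block, glmTreat, an adjusted p alone and each replicate left out. The edgeR test, DESeq2 and limma were tested on data simulated from CRLM1-OE and Ctrl only. There limma took CPM in place of FPKM, with a pseudocount of 0.1. Changes were planted only in genes averaging 10 counts or more, so members of fewer counts were not covered. Adjusted p-values under 1e-300 are written as 1e-300. Members are named if their mean FPKM reached 1 in a group or their adjusted p was at most 0.05 in a comparison, with FOXD3 and FOXF1 in any case. List genes are named if called, or, in a list with none called, if among the 3 largest changes against Ctrl that passed with a mean count of at least 50. Other named genes were chosen after their values were seen. Some list genes that this rule names are not reported here. Positions are from GENCODE version 44. FOXF1 and FOXL1 promoters were not used here. Python 3.11.15, pandas 2.3.3 and matplotlib 3.10.9 drew the figures.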

Additional observations from a re-analysis of the deposited data

How the results depend on the processing

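Counts of called members changed with the depth filter and the test. A pseudocount shrinks the fold change of genes of low FPKM, and the depth filters leave out genes of few counts. Lower counts with limma or these filters therefore do not show by themselves that a difference was lost. FOXQ1 in CRLM1-anti against Ctrl passed the adjusted p in all 15 alternatives, limma included, at log2 fold changes from 0.315 to 1.34. In CRLM1-OE against Ctrl the 4 members called higher became 1 with at least 10 counts in every sample, 2 with DESeq2, 1 and 0 with limma at pseudocounts of 0.1 and 1, 0 with glmTreat and 11 with the adjusted p alone, and 2 to 5 with a replicate left out (2 without Ctrl replicate 1). The 0 called lower became 4 with the adjusted p alone. Against CRLM1-anti, 0 called higher became 10 with the adjusted p alone. The 4 called lower became 2 with filterByExpr, 1 at 10 counts, 2 with DESeq2, 0 with limma at either pseudocount, 0 with glmTreat, 10 with the adjusted p alone and 1 to 3 with a replicate left out (1 without CRLM1-anti replicate 1 or CRLM1-OE replicate 2, and 2 without CRLM1-anti replicate 2 or 3). For CRLM1-anti against Ctrl the 7 called higher became 1 at 10 counts, 1 with DESeq2, 0 with limma at either pseudocount, 0 with glmTreat, 13 with the adjusted p alone and 4 to 6 with a replicate left out (4 without any 1 of the CRLM1-anti replicates), and the 0 called lower became 4 with the adjusted p alone. The replicate numbers showed no sign of pairing the samples. Correlations ran from -0.0749 to 0.0782 for same-numbered samples and from -0.109 to 0.144 for the others, which cannot settle whether the samples were paired. With the replicate block the counts were 4 higher in CRLM1-OE against Ctrl, 2 lower against CRLM1-anti and 6 higher for CRLM1-anti against Ctrl.

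The members' median was 0.331 with total counts, 0.124 at 10 counts, 0.247 and 0.135 with limma, and 0.0947 to 0.219 with a replicate left out (lowest without Ctrl replicate 1) for CRLM1-OE against Ctrl, 0.143, 0.13 (limma, 0.1) and 0.0414 to 0.0924 (0.0414 without CRLM1-anti replicate 1, 0.0543 without CRLM1-anti replicate 3) against CRLM1-anti, and 0.246 with total counts and 0.229 (limma, 0.1) for CRLM1-anti against Ctrl. Total counts moved the share of higher among all called genes from 73.2% to 85.5% for CRLM1-OE against Ctrl and from 64.2% to 80.6% for CRLM1-anti against Ctrl, and limma at 0.1 moved the former to 85.2%.

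Among the named forkhead members, signs turned only in genes that passed in neither fit. With total counts, CRLM1-OE against Ctrl gave 0.0079 for FOXA3, 0.088 for FOXN2, 0.032 for FOXN3 and 0.13 for FOXP2. Limma at 0.1 and 1 gave 0.067 and 0.050 for FOXN2, 0.0046 and 0.0036 for FOXN3, and 0.029 and 0.0079 for FOXP2. FOXP2 was 0.0029 with filterByExpr and 0.013 at 10 counts. Leave-one-out ranges that crossed 0 were -0.069 to 0.14 for FOXD2, -0.064 to 1.14 for FOXD4L5, -0.11 to 0.022 for FOXN2 and -0.28 to 0.19 for FOXP2. Against CRLM1-anti FOXN2 was 0.0036 with RLE factors, 0.054 with total counts, 0.0022 with filterByExpr, 0.0095 at 10 counts, 0.0031 with DESeq2, and 0.040 and 0.030 with limma, and FOXO1 was 0.027 with total counts and 0.011 and 0.0079 with limma. Leave-one-out ranges were -0.19 to 0.092 for FOXD3, -0.034 to 0.038 for FOXN2 and -0.078 to 0.011 for FOXO1. For CRLM1-anti against Ctrl total counts gave 0.029 for FOXC1, 0.033 for FOXN2 and 0.079 for FOXO3, limma 0.014 and 0.013, 0.028 and 0.020, and 0.064 and 0.059, and leave-one-out ranges were -0.17 to 0.73 for FOXJ1 and -0.0050 to 0.020 for FOXJ3. The causes were not tested. Depth limits the members of under 50 counts, whose counts called rest on few reads.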
